A study of Mus musculus with 2 samples.

Results

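Cardiac developmental transcription factors are the genes that pattern the embryonic heart and that, in part, go on being used in the adult organ. The set described here holds 46 named genes in 15 families or functional groups, taken as a list by name from the 55536 mouse genes that were quantified. They were measured by total RNA-seq in heart tissue of 2 female mice of the strain B6CASTF1/J, the F1 hybrid made from a C57BL/6J and a CAST/EiJ parent. Both mice were 36 days old, and 300 ng of RNA went into each library. Replicate 1 is the animal with the number 3 in the labels and replicate 2 the one with the number 4; each has its own biosample, but the donor identifier is the same. The animals form 1 group with no treatment named, so there was no contrast between conditions, and the only comparison was of 1 library with the other. The tissue is labelled as heart, with no chamber named.

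Heart formation rests on a small circuit of DNA-binding proteins that act on shared enhancers. GATA zinc finger proteins, the NK2 homeodomain protein Nkx2-5, T-box proteins, HAND helix-loop-helix proteins and the MADS-box proteins of the MEF2 family and SRF bind near one another at cardiac genes and recruit each other. Iroquois and HEY proteins then separate chambers and conduction tissue. TEAD proteins carry the output of the Hippo pathway, and factors such as Wt1, Tcf21, Prrx1 and Tbx18 mark the epicardium and the fibroblasts and mural cells that come from it.

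The libraries held 39053339 and 38332179 expected counts, that is, reads as the authors' program assigned them to genes. At this depth 3 counts, the most that a count of 0 allows, came to 0.0772 and 0.0786 CPM (counts scaled by the total over mouse genes). The authors quantified each library in 2 ways, and values are of the first unless the second is named. Levels are given in TPM, which divides each gene's reads by transcript length and then scales them to a fixed sum, so that genes can be compared. Mitochondrial genes took 29.0% and 31.6% of the counts and haemoglobin genes 1.54% and 0.493%, and both shares lower or raise every other TPM. Of the cardiomyocyte markers used to check the tissue, 10 of 10 were detected, with a median of 2734 TPM. Lung markers were detected in 0 of 5 genes. Of the skeletal muscle list 1 of 7 was detected, Acta1 at a mean of 410 TPM, and Myh4, Myod1 and Pax7 were at 0 counts. Acta1 is also in the list of cardiac target genes used below. The skeletal muscle list summed to 513 TPM in replicate 1 and 309 TPM in replicate 2.

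Most of the regulators were detected at 36 days. At least 1 TPM in both libraries, the level called detected here, was reached by 37 of the 46 (80.4%), against 11037 of 21938 nuclear protein-coding genes (50.3%). The detected regulators had a median of 9.55 TPM and the detected protein-coding genes one of 8.71 TPM. Of the 46, 18 reached 10 TPM in both libraries and 11 reached 25 TPM. The 9 below the threshold were Foxc2, Shox2, Tbx1, Gata5, Gata3, Isl1, Mef2b, Hand1 and Irx6, and of these Hand1 and Irx6 had 0 counts in both libraries. In the order of levels, the values of the libraries overlapped for 17 of 36 neighbouring pairs of detected regulators, so those neighbours cannot be ranked.

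**Figure D1:**
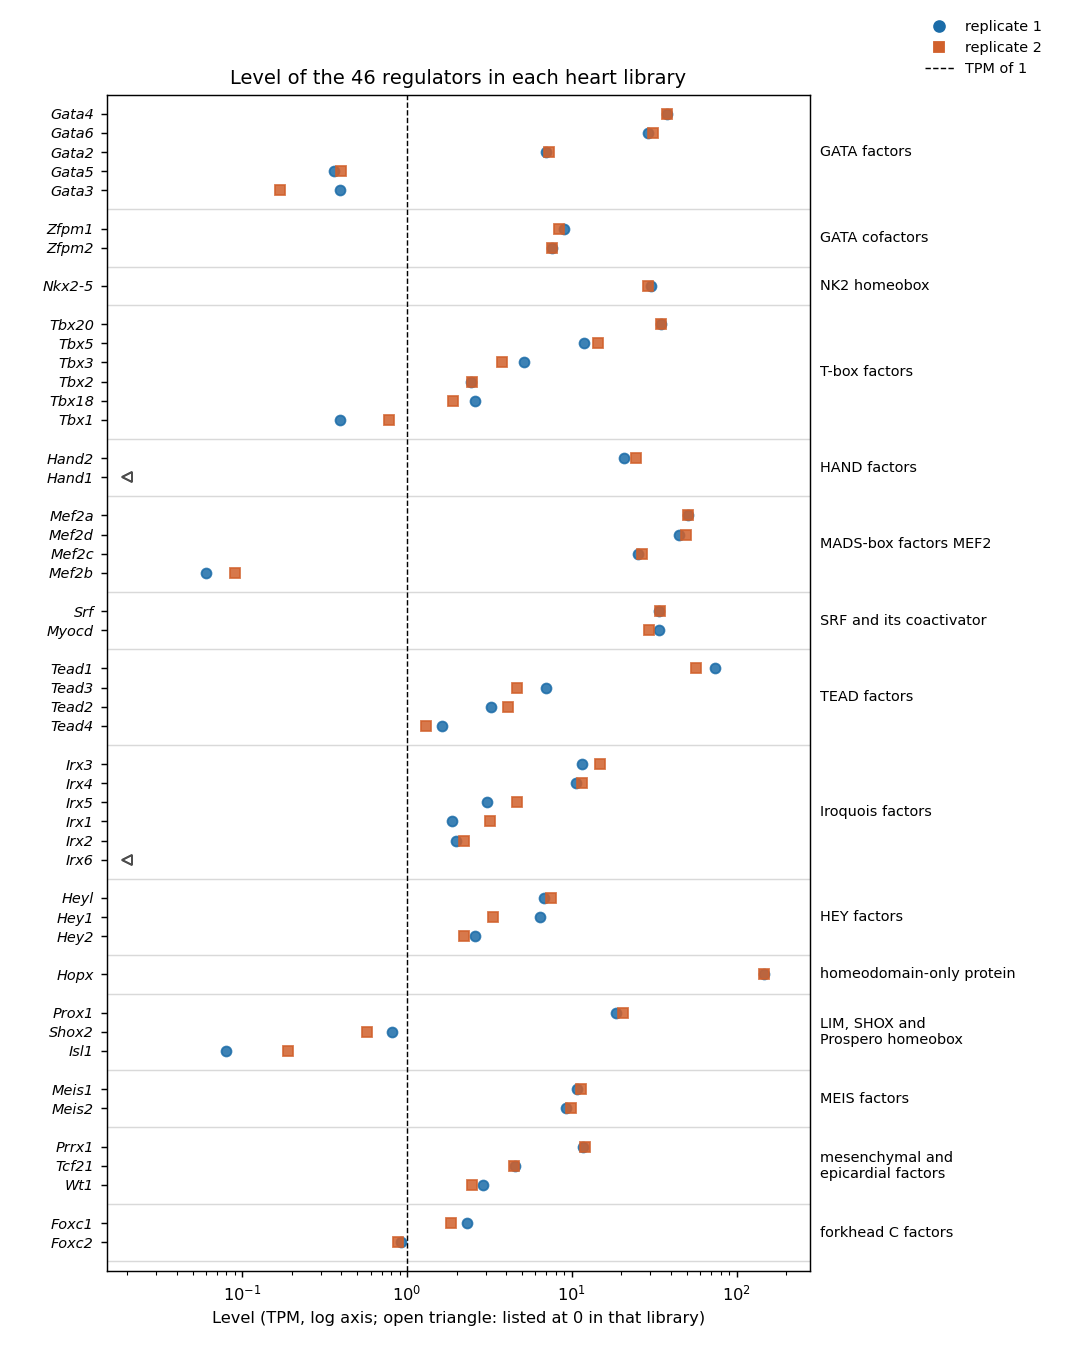
Level of each of the 46 regulators in TPM on a log axis, by family, with 1 point per library (circle, replicate 1; square, replicate 2) and a dashed line at the TPM of 1 used to call a gene detected. Hopx is the highest at 147 and 146 TPM, and open triangles at the left edge stand for Hand1 and Irx6, which are listed at 0.

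Among the GATA factors, the heart carried mainly Gata4 and Gata6. Gata4 (ENSMUSG00000021944.15, chromosome 14, 63198922 to 63271692), which binds with Nkx2-5 and Tbx5 at cardiac promoters, stood at 38.1 and 37.7 TPM in replicates 1 and 2 (37.9 ± 0.247, mean ± SD, n = 2). Gata6, its close relative in heart and endoderm, stood at 28.9 and 31.2 TPM. Together they made 89.7% ± 0.118 of the family's TPM, Gata4 50.1% ± 1.27 and Gata6 39.7% ± 1.38 (SD, n = 2). Gata2, a factor of endothelial and blood cells, followed at 6.98 and 7.24 TPM. Gata5, known from endocardium, was at 0.36 and 0.40 TPM and Gata3 at 0.39 and 0.17 TPM, both below the threshold. The zinc finger cofactors that bind GATA proteins were nearly equal, with Zfpm1 (FOG1) at 8.92 and 8.34 TPM and Zfpm2 (FOG2) at 7.55 and 7.62 TPM. Which of these cofactors led depended on the unit, since Zfpm2 held 59.4% of the pair's counts and 46.8% of its TPM. Nkx2-5, the homeodomain protein whose loss in humans causes septal and conduction defects, had 30.4 and 29.1 TPM, close to Gata6.

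Tbx20 led the T-box factors. This gene, needed for chamber growth and for adult cardiomyocyte function, had 34.7 and 35.0 TPM and 60.4% ± 0.594 of the family total. Tbx5, the factor of the left ventricle, the atria and the conduction system, had 11.8 and 14.4 TPM. The repressors that keep conduction and cushion tissue from becoming working muscle were lower, with Tbx3 at 5.12 and 3.77 TPM and Tbx2 at 2.44 and 2.49 TPM. Tbx18, a gene of the sinus horn and epicardium, had 2.59 and 1.90 TPM. Tbx1, a gene of the outflow tract progenitors, stayed below the threshold at 0.39 and 0.78 TPM, from 22 and 40 counts. In the second quantification Tbx20 also led, with 49.8% of the family.

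Only 1 of the HAND genes was seen. Hand2, which is known for the right ventricle and for mural and nerve cells, had 20.7 and 24.6 TPM. Hand1, its relative in the embryonic left ventricle, had 0 counts in both libraries, and the second quantification listed it at 0 and 0.022 TPM. A count of 0 allows Hand1 up to 0.0772 CPM in replicate 1 and 0.0786 CPM in replicate 2.

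Of the MEF2 factors, which bind AT-rich elements in muscle genes together with GATA and helix-loop-helix proteins, 3 of 4 were expressed. Mef2a stood at 50.8 and 51.1 TPM, Mef2d at 44.7 and 49.7 TPM and Mef2c, the member needed first in the embryonic heart, at 25.1 and 26.5 TPM. In shares of the family, Mef2a held 41.1% ± 1.39, Mef2d 38.0% ± 1.37 and Mef2c 20.8% ± 0.0102. Mef2b had 2 and 3 counts.

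The 3 expressed MEF2 genes share alternative coding exons, which are shown because their use differed between the genes. A short exon can be left out. In Mef2c and Mef2d a pair of exons of similar length follows the DNA-binding part, of which transcripts use 1 or the other. Whether Mef2a has such a pair is not reported here. All coordinates are of build mm10 with annotation M21. In the following lines the short exons run 5′ to 3′ on the coding strand, and capitals mark bases that match the short exon of Mef2c (for Mef2a) or of Mef2a (for Mef2c and Mef2d). They lie at chr7:67244521-67244544 (minus strand, Mef2a), chr13:83654598-83654621 (plus strand, Mef2c) and chr3:88161781-88161801 (plus strand, Mef2d).
Mef2a short exon: TCgGAGGAaGaGGAatTGgaGTTG
Mef2c short exon: TCtGAGGAtGtGGAtcTGctGTTG
Mef2d short exon: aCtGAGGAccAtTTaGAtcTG

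The Mef2a and Mef2c short exons are 24 bases long and identical at 17 of them, and that of Mef2d is 21 bases long. These lengths add 8, 8 and 7 whole codons. In the first quantification, Mef2a transcripts with the short exon made 73.9% and 72.8% of the TPM of transcripts that either use or skip it. Mef2c transcripts did so at 34.5% and 36.3%, and Mef2d transcripts at 15.5% and 15.2%. For Mef2c the base was 13.87 and 14.48 TPM of the gene's 25.1 and 26.5 TPM. The 3 genes did not overlap, and the second quantification gave the same order at 69.9% ± 0.204, 37.2% ± 0.104 and 14.5% ± 0.0798 (SD, n = 2). These shares come from transcript estimates and not from reads across the junctions.

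In the exon pair, first and second are in the order of transcription. The pair of Mef2c lies at chr13:83625265-83625408 and chr13:83625470-83625607 (plus strand), and that of Mef2d at chr3:88158034-88158171 and chr3:88158221-88158355 (plus strand). Capitals mark bases that are the same in the other exon of that gene's pair after alignment.
Mef2c first exon: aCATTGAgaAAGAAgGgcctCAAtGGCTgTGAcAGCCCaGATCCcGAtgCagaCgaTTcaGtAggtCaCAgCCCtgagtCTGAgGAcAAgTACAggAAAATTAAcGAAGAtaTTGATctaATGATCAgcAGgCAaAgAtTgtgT
Mef2c second exon: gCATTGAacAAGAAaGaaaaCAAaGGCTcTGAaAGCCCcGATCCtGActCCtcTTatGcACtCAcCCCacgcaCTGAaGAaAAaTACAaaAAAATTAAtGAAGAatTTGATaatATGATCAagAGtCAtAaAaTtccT
Mef2d first exon: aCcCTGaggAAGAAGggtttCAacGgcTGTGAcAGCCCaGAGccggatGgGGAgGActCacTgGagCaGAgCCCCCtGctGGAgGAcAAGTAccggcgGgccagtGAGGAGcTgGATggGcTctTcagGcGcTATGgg
Mef2d second exon: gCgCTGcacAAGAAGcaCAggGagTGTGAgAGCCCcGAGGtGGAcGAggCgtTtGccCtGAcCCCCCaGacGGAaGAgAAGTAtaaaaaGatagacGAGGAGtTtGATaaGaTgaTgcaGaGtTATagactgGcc

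The exons within a pair matched at 63.2% of aligned positions in Mef2c and 51.4% in Mef2d. The second exons of Mef2c and Mef2d matched each other at 65.2%, and the first exons at 63.9%. Each of the 4 exons has a length divisible by 3. The first exon was the main choice in both genes. It held 83.1% and 84.3% of the TPM of Mef2d transcripts with 1 of the 2 exons. For Mef2c it held 53.1% and 60.5%, a more even use with a wider spread between libraries, and the second quantification gave 64.5% and 65.1%. The base for Mef2c in the first quantification was 14.15 and 15.7 TPM.

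SRF and its coactivator followed at similar levels. Srf, the MADS-box factor of contractile and immediate early genes, had 33.9 and 34.1 TPM. Myocd (myocardin), which binds SRF and is limited to heart and smooth muscle, had 33.9 and 29.3 TPM. In counts Myocd was the higher of the pair with 64.3%, and in TPM Srf was with 51.9%.

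Among the TEAD factors, Tead1 (ENSMUSG00000055320.17, chromosome 7, 112679318 to 112906807) was far above the rest. It had 74.0 and 56.7 TPM, or 85.6% ± 0.932 of the family, and ranked second of the 46 regulators. Tead3 had 6.95 and 4.66 TPM, Tead2 3.23 and 4.09 TPM and Tead4 1.62 and 1.31 TPM. A 12-base coding exon of Tead1 was present in 67.7% and 77.6% of the TPM of transcripts that use or skip it, and the second quantification gave 83.3% and 85.9%. Tead1 and Tead3 each have a pair of exons of 63 bases that exclude one another. In Tead1 the second exon of the pair held 98.3% of the TPM of transcripts with 1 of the 2 exons. In Tead3 the first held 94.9% ± 7.21, and the second quantification gave 93.3% and 69.1% for these exons. The base for Tead1 was 41.5 and 26.5 of the gene's 74.0 and 56.7 TPM, and 23.3 and 17.6 TPM in the second quantification. It left out Tead1-201, the transcript with the highest mean share in both quantifications. For Tead3 the base was 3.03 and 3.04 TPM in the first quantification.

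**Figure D2:**
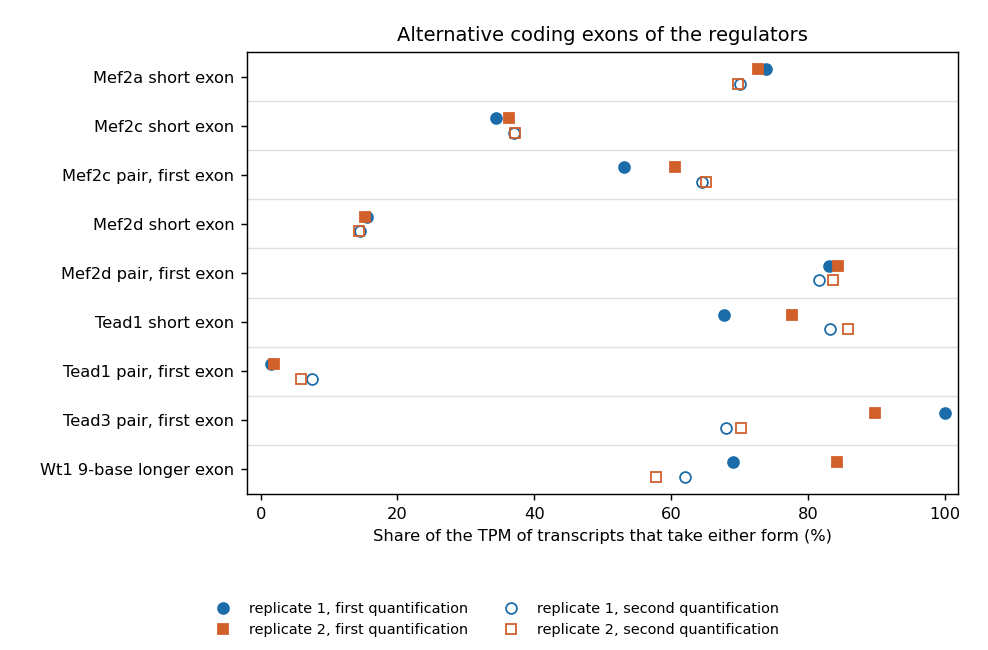
Share of TPM, in percent, of transcripts with the named alternative exon among transcripts that take either form, for each library (circle, replicate 1; square, replicate 2) in the first (filled) and the second (open) quantification. The MEF2 short exon separates Mef2a near 73%, Mef2c near 35% and Mef2d near 15%, and Tead3 and Wt1 move most between quantifications.

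The Iroquois genes lie in 2 clusters of 3, on chromosome 13 (Irx1, Irx2, Irx4) and chromosome 8 (Irx3, Irx5, Irx6). Irx3, which sets fast conduction in the Purkinje network, had 11.5 and 14.9 TPM. Irx4, the ventricular identity factor, had 10.7 and 11.5 TPM. Irx5, which is known to repress a repolarizing potassium channel across the ventricular wall, had 3.07 and 4.64 TPM, Irx1 1.87 and 3.19 TPM and Irx2 1.97 and 2.21 TPM. Irx6, the last gene of the chromosome 8 cluster, had 0 counts. Each of the 5 detected Iroquois genes thus had the higher TPM in replicate 2, although for Irx2 the log2 ratio of scaled counts was -0.03.

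The HEY repressors, which are switched on by Notch, were at low levels. Heyl, a gene of smooth muscle and endothelium, had 6.79 and 7.45 TPM. Hey2, the repressor of the compact ventricular wall, had 2.59 and 2.23 TPM. Hey1 (ENSMUSG00000040289.8, chromosome 3, 8663359 to 8667256), known from atrial muscle and endothelium, had 6.43 and 3.31 TPM. Heyl led in both libraries, and Hey1 had the widest spread of the 3. In the second quantification Hey1 had 9.04 and 5.10 TPM against 7.81 and 7.33 TPM for Heyl, so the leading gene there differed between the libraries.

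Hopx was the highest of all 46. This small homeodomain protein does not bind DNA, works through SRF and histone deacetylases, and is kept in adult cardiomyocytes and conduction cells. The gene (ENSMUSG00000059325.14) lies on chromosome 5 from 77086988 to 77115121 in mm10. It had 147 and 146 TPM, rank 375 among 21938 nuclear protein-coding genes. Prox1, a Prospero homeobox gene known for lymphatic endothelium and also used in heart muscle, had 18.6 and 20.6 TPM. Isl1, which marks the progenitors of the second heart field and part of the pacemaker, had 4 and 8 counts. Shox2, needed in the sinus node, had 0.81 and 0.57 TPM from 47 and 36 counts. Both are markers of a tissue that makes up little of a heart, and in a whole tissue fewer cells of a type and less RNA per cell cannot be told apart. The homeodomain cofactors Meis1, linked to the postnatal arrest of cardiomyocyte division, and Meis2, linked to outflow tract septation, had 10.8 and 11.3 TPM and 9.23 and 9.87 TPM.

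Among genes of the epicardium and its derivatives, Prrx1 lay above the median of the detected regulators and Tcf21 and Wt1 below it. Prrx1, a gene of mesenchyme, had 11.6 and 12.1 TPM, Tcf21, which is required for cardiac fibroblasts, 4.5 and 4.46 TPM, and Wt1, the epicardial zinc finger protein, 2.89 and 2.49 TPM. Foxc1, a factor of outflow tract and vessels, had 2.31 and 1.85 TPM, and Foxc2, known for lymphatic valves, 0.92 and 0.88 TPM, just below the threshold. Wt1 has a 9-base splice choice, known as KTS, that lengthens an exon between zinc fingers. Transcripts with the longer form held 69.1% and 84.2% of Wt1 TPM that could be assigned, and 62.0% and 57.8% in the second quantification, on a base of 2.46 and 2.09 TPM in the first. The library with the higher share in the first quantification had the lower share in the second.

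The levels of the regulators were set a second time by the authors' other quantification, made from reads and a transcript index. It also detected 37 of the 46. For 34 of the 37 regulators detected in the first, the mean TPM was within 1.5-fold of the first, and across all 46 Pearson's r of log2(TPM + 1) between the quantifications was 0.995, where genes are not replicates and share their libraries. The second quantification gave higher counts for the regulators than the first, with a median ratio of 1.08 in replicate 1 against 1.06 over all genes. Hand2 and Tcf21 were the only regulators with at least 50 counts that were lower in it in both libraries, at 0.94 and 0.98 of the first count for Hand2 and 0.87 and 0.92 for Tcf21. Among all genes 16.9% were lower in both. Reads were rarely divided between the regulators and other genes in the first quantification, since expected counts were whole numbers in both libraries for 45 of 46 (within 1e-06), Meis1 being the exception, against 81.9% of all genes tested. Of 13 families with several members, 10 had the same leading gene in TPM, in counts and in the second quantification.

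The libraries were then compared on counts. For each gene an exact binomial test set the rounded expected counts against effective library sizes, with Benjamini-Hochberg adjustment over all 13745 genes whose counts summed to 50 or more. It compares the reads of 2 libraries and says nothing of conditions, and its p-values hold counting error only. Of the 46 regulators 42 could be tested, all but Hand1, Irx6, Mef2b and Isl1. In this test 12 of 42 (28.6%) had an adjusted p under 0.05, 8 higher and 4 lower in replicate 2, and of all genes 21.6% did. With spike-in RNAs as the scale 25 were higher and 2 lower, and with totals free of mitochondrial and haemoglobin genes 7 were higher and 9 lower, so the split of directions rests on the scale. At these 2 scales 7885 and 3333 of all 13745 genes were called, beside 2966 in the main test. The median log2 ratio of the regulators, replicate 2 over replicate 1, was 0.04 and that of all genes 0.00. Within 1.25-fold of each other in the libraries lay 35 of 42 regulators (83.3%) and 83.9% of all genes.

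At 2-fold or more, 1 regulator was called, and 1.53% of all genes were. This was Gata3 (ENSMUSG00000015619.10, chromosome 2, 9857078 to 9890034), with 38 counts in replicate 1 and 16 in replicate 2, a log2 ratio of -1.12 (95% exact interval -2.09 to -0.27, adjusted p = 0.0412 in the binomial test). It was below 1 TPM in both libraries, and with spike-ins as the scale its adjusted p was 0.0713. On that scale the 1 regulator called at 2-fold was Tbx1, also below 1 TPM. Its log2 ratio there was 1.19 (adjusted p = 0.00437 in the binomial test). Hey1 had 426 and 228 counts and a log2 ratio of -0.80 (-1.04 to -0.56), or 1.74-fold lower in replicate 2, and was lower under each scale tried. Tead1, with 13588 and 10313 counts, was 1.23-fold lower (log2 ratio -0.30, -0.33 to -0.26), and with spike-ins as the scale the log2 ratio was -0.05. Tbx3 was 1.22-fold lower (-0.28, -0.45 to -0.12), and with spike-ins as the scale it was not called, at an adjusted p of 0.711 in the binomial test.

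Higher in replicate 2 were Irx5, Irx3, Tbx5, Hand2, Mef2d, Prox1, Meis2 and Gata6. Irx5 had 227 and 332 counts, a log2 ratio of 0.65 (0.40 to 0.90). Its cluster neighbour Irx3 had 955 and 1182 counts, a log2 ratio of 0.41 (0.29 to 0.53). Tbx5 followed at 0.32 (0.21 to 0.44), Hand2 at 0.30 (0.20 to 0.40) and Mef2d at 0.28 (0.23 to 0.34). The other 3 ranged from 0.17 for Gata6 to 0.22 for Prox1. Gata4, Nkx2-5, Tbx20 and Hopx had log2 ratios from -0.03 to 0.06, and their intervals lay within 0.14 of zero on either side. On the spike-in scale their log2 ratios were 0.31, 0.24, 0.21 and 0.29, where the median of all genes was 0.24. Each of them was called there at an adjusted p under 0.05 in the binomial test. The genes named as higher ran from 0.42 for Gata6 to 0.89 for Irx5 on that scale.

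When a spread estimated from the same 2 libraries was added to counting error, no regulator was called. The exact test of edgeR with a common dispersion over both libraries (biological coefficient of variation 0.113) had 0 of 42 regulators at an adjusted p under 0.05 and 4 at an unadjusted p under 0.05, and it called 1.13% of all genes. The lowest edgeR p was that of Hey1 (0.00237, adjusted 0.15), followed by Irx5 (0.0139, adjusted 0.549), Gata3 (0.0241, adjusted 0.81) and Tbx1 (0.0394, adjusted 1.00). Hey1 thus had the lowest p in this test and did not pass it after adjustment. The dispersion came from the 2 libraries taken as 1 group, over all genes tested. No further animals were there to measure the spread apart from the difference under test. These 4 genes were also the ones outside the middle 95% of all genes, which ran from -0.61 to 0.59 in log2 ratio.

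**Figure D3:**
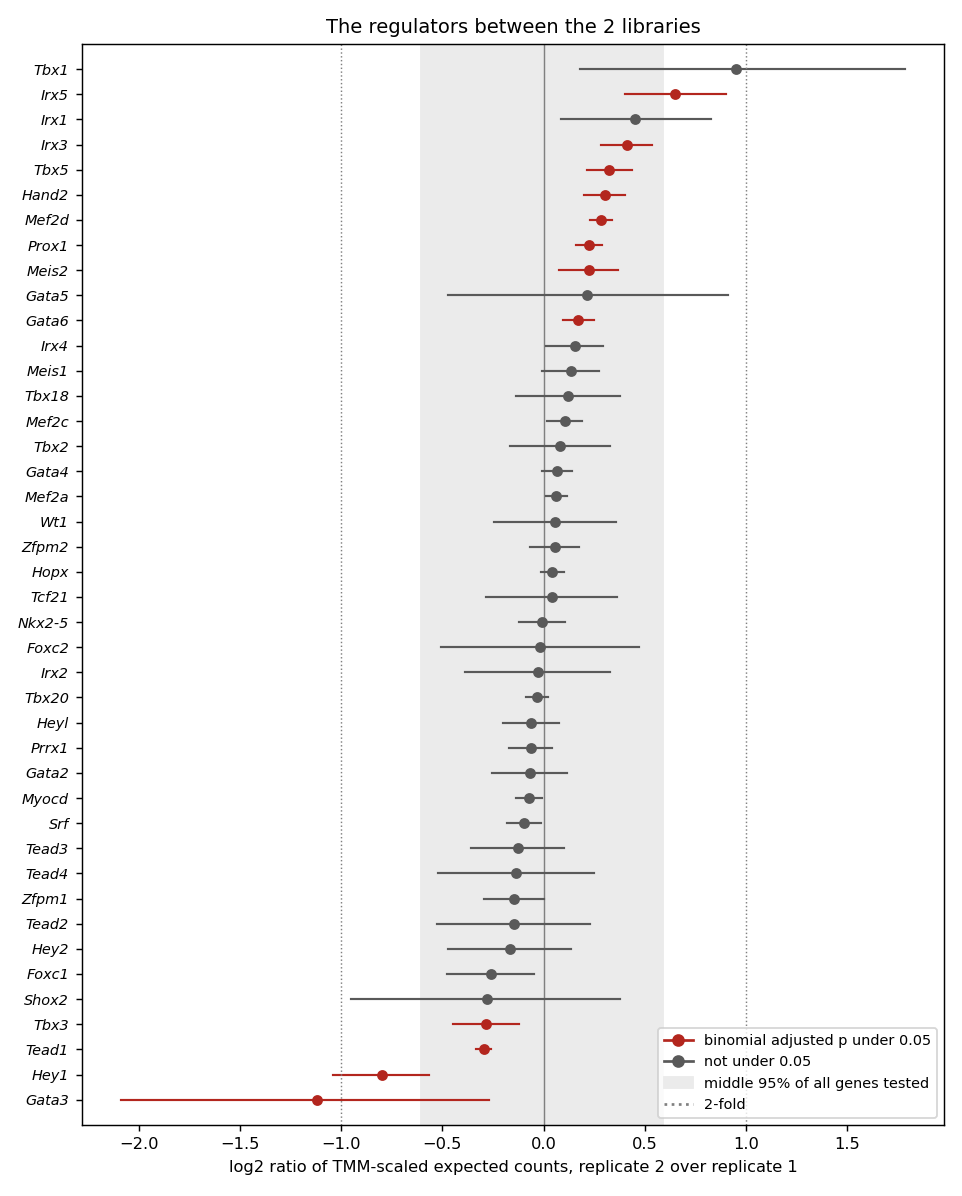
Log2 ratio of scaled expected counts, replicate 2 over replicate 1, for the 42 regulators whose counts summed to 50 or more, with exact 95% counting intervals, red where the binomial adjusted p is under 0.05. The grey band holds the middle 95% of all 13745 genes tested (-0.61 to 0.59), and Gata3, Hey1, Irx5 and Tbx1 lie outside it.

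TPM and counts did not always give the same direction. For 12 of the 37 regulators both tested and detected, the TPM ratio and the count ratio had opposite signs. Tead2 was 0.49 higher in log2 TPM ratio than in log2 count ratio, Irx1 0.32 higher, and Tbx18, Tead3 and Wt1 were lower by 0.57, 0.45 and 0.27, where the median shift over all genes was -0.06. In 3 of these 5 genes the share of non-coding transcripts, meaning all types not annotated as protein-coding, also differed between the libraries. In Tbx18 the 423-base processed transcript Tbx18-202 held 35.5% of the TPM in replicate 1 and 4.7% in replicate 2, and in Tead3 non-coding transcripts held 56.4% and 34.9%. Tead2 had 21.1% and 64.9% in them. Irx1 had 0% in both libraries, and Wt1 had 15.2% and 15.7%. The second quantification gave Tbx18 0% and 4.24% in non-coding transcripts and Tead3 26.8% and 29.7%, so the order of the libraries was reversed. Tead2 kept its order there, at 1.70% and 23.5%. TPM divides by a length set by the estimated mix of transcripts, which the counts do not.

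**Figure D4:**
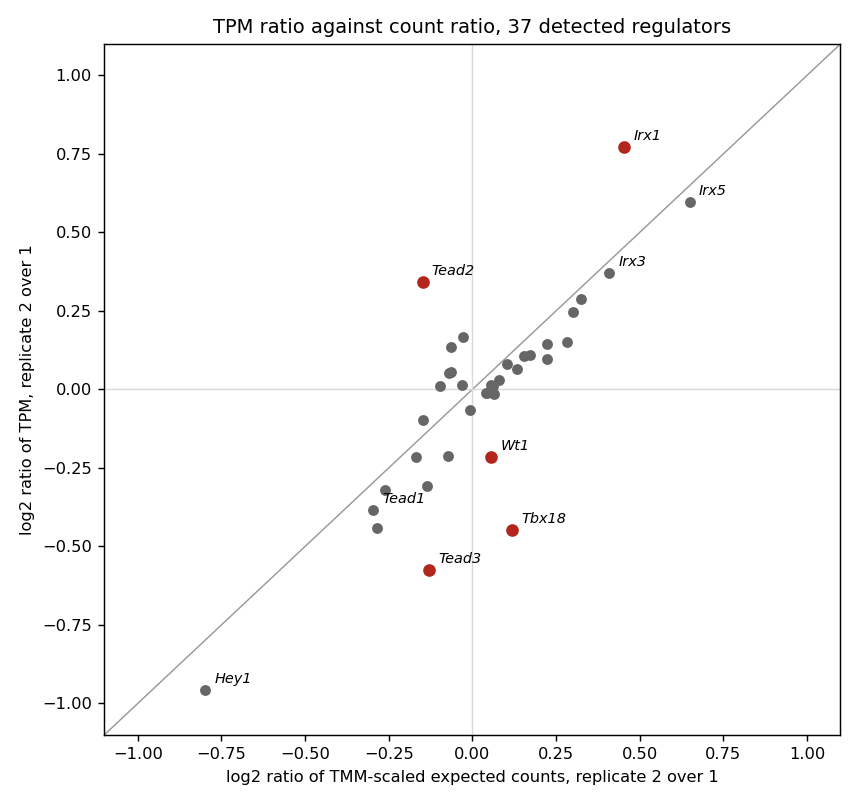
Log2 ratio of TPM against log2 ratio of scaled expected counts, replicate 2 over replicate 1, for the 37 detected regulators, with a line of equal ratios. Red points are Tbx18, Tead2, Tead3, Irx1 and Wt1, which lie over 0.2 from the line in log2 ratio, and Hey1 lies near it at the low end.

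Of the 37 detected regulators, 34 have several annotated transcripts. The leading transcript was the same in both quantifications for 27 of the 37 and different for 7, the other 3 having 1 transcript. The 7 were Hopx, Mef2c, Meis1, Meis2, Prrx1, Tead2 and Tead3. Hopx-202 led in the first with 61.3% ± 0.218 and had 0% in the second, where Hopx-203 led with 72.2% ± 4.24. Nkx2-5-201 led Nkx2-5 in both, at 99.3% ± 0.359 and 69.3% ± 1.65. Myocd-203 led Myocd with 58.7% ± 2.30 and 73.4% ± 1.02, and Prox1-202 led Prox1 with 78.4% and 75.3%.

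Non-coding transcripts were a small part of most regulators, with a median share of 3.67% in the first quantification and 3.84% in the second. In 4 regulators they exceeded 20% in both quantifications. Meis1 had 63.3% ± 4.18 and 50.6% ± 6.08 of its TPM in non-coding transcripts, led by the processed transcript Meis1-203 in the first quantification. Prrx1 had 29.8% and 48.3%, mostly Prrx1-205, Tead3 45.7% and 28.3%, and Meis2 24.6% and 39.8%. Retained introns and transcripts marked for nonsense-mediated decay are included. By these estimates the protein-coding TPM of these genes is lower than the gene totals given above. Short transcripts weigh more in TPM than in counts. Prrx1-205, 1335 bases long, had 105.64 and 161.23 of the 1505 and 1341 counts of Prrx1, beside 23.4% and 35.5% of its TPM.

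Non-coding genes that overlap a regulator or start head to head with it within 5 kb were counted for 28 regulators, 44 in all. At least 1 TPM in both libraries was reached by 5 of them, and 10 had 0 counts. Hand2os1 (Upperhand), which overlaps Hand2 on the opposite strand, was the highest at 53.2 and 51.1 TPM, above Hand2 itself in TPM. In counts the order was reversed, with 1161 and 1241 for Hand2os1 and 1468 and 1686 for Hand2. The transcript 1010001N08Rik, opposite to Gata6, had 12.7 and 14.9 TPM. Gm43050, 748 bases from Tbx5, had 4.25 and 5.71 TPM, Crnde, 1505 bases from Irx5, 1.76 and 2.41 TPM, and 2310014F06Rik, which overlaps Tead1, 2.13 and 1.23 TPM. In log2 count ratio 2310014F06Rik was -0.73 (95% exact interval -1.23 to -0.24) beside -0.30 for Tead1, Crnde 0.39 (-0.28 to 1.07) beside 0.65 for Irx5, and Hand2os1 0.20 (0.08 to 0.32) beside 0.30 for Hand2. The sources used here do not say whether reads were counted by strand, so reads of a regulator and an overlapping partner may not be told apart.

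Partners and co-regulators of these factors were mostly present. Of 38 genes matched, 34 were detected, with a median of 10.2 TPM, from Smyd1, a muscle histone methyltransferase, at 140 and 126 TPM to Vgll1, a TEAD cofactor, at 0 counts. The Hippo coactivators that bind TEAD proteins, Yap1 and Wwtr1 (TAZ), had 24.8 and 23.4 TPM and a mean of 20.1 ± 0.191 TPM (SD, n = 2). Of 35 tested, 7 were higher and 5 lower in replicate 2 at any fold in the binomial test, 34.3% beside 21.6% of all genes, and 0 were called at 2-fold beside 1.53%. With spike-ins as the scale 26 were higher and 2 lower, where 7885 of all 13745 genes were called. The exact test of edgeR with a common dispersion called 0 of the partners, with 2 at an unadjusted p under 0.05. The lower genes included all 3 detected Id genes, inhibitors of helix-loop-helix proteins, which were chosen after their values were seen, with Id1 at 29.3 and 19.3 TPM, Id3 at 32.2 and 20.9 TPM and Id2 at 6.52 and 4.68 TPM. With spike-ins as the scale Id2 was not called, at an adjusted p of 0.346 in the binomial test.

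Known cardiac target genes of the set were all detected, 29 of 29 matched, with a median of 159 TPM. They ran from Myh6, the alpha myosin heavy chain, at 8321 and 8958 TPM to Hcn4, the pacemaker channel, at 2.35 and 2.23 TPM. In the binomial test at any fold 12 were higher and 11 lower in replicate 2, 79.3% of the list beside 21.6% of all genes, and their median log2 ratio was 0.00. The exact test of edgeR with a common dispersion called 1 of the 29. With spike-ins as the scale 24 were higher and 3 lower, where 7885 of all 13745 genes were called. Bmp10, an atrial growth factor of the BMP family, was the 1 gene edgeR called and the 1 past 2-fold, with 20.7 and 9.46 TPM and a log2 ratio of -1.08 (-1.17 to -0.98), or -0.83 with spike-ins as the scale.

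Other developmental transcription factors, a list of genes of mesoderm, endothelium and neighbouring tissues, were detected in 22 of 38 genes, with a median of 1.47 TPM over the list. Klf2, a flow-sensitive endothelial factor, was the highest at 25.5 and 35.2 TPM, and Mesp1, Nkx2-6 and Etv2, genes of early mesoderm and progenitors, had 0 counts. Of 26 tested, 4 were higher and 2 lower in replicate 2 at any fold in the binomial test, 23.1% beside 21.6% of all genes. On the spike-in scale 15 were higher and 1 lower, where 7885 of all 13745 genes were called. Sox18, an endothelial and lymphatic factor, was the 1 called past 2-fold, beside 1.53% of all genes. It had 30.04 and 12.4 TPM (log2 ratio -1.22, -1.36 to -1.08, or -0.98 with spike-ins as the scale). Bmp10 and Sox18 were also called by edgeR, with adjusted p of 0.000917 and 0.000115.

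Marker lists gave the cellular setting of these values. Atrial markers were detected in 8 of 8 genes and ventricular markers in 6 of 6, among them the regulators Irx4 and Hey2. Conduction markers were detected in 5 of 8 with a median of 1.83 TPM, and 3 of that list, Tbx3, Shox2 and Isl1, are regulators described above. Epicardial and mesothelial markers were detected in 7 of 8 (median 3.50 TPM) and fibroblast markers in 10 of 10 (median 36.7 TPM). Endothelial markers were lower in replicate 2 in 4 of 9 genes in the binomial test, 44.4% beside 21.6% of all genes called in either direction. The 9 summed to 671 and 622 TPM, beside the lower Hey1. With spike-ins as the scale 6 were higher and 0 lower, where 7885 of all 13745 genes were called, and edgeR called 0 of the 9. The 5 lymphatic markers other than Prox1 summed to 38.1 and 33.8 TPM, with 0 higher and 2 lower, beside the higher Prox1. Of the 6 lymphatic markers with Prox1 included, 2 were higher and 1 lower with spike-ins as the scale, and edgeR called 0.

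Blood and fat markers differed most between the libraries. Erythroid markers were lower in replicate 2 by 2-fold or more in 7 of 7 genes, summing to 36364 and 11883 TPM. Of all genes tested, 21.6% were called at any fold and 1.53% at 2-fold, in either direction. On the spike-in scale 7 erythroid and 4 adipocyte markers were lower, where 7885 of all 13745 genes were called. The exact test of edgeR called 7 erythroid and 4 adipocyte markers, beside 1.13% of all genes. Adipocyte markers were lower in 5 of 5 tested genes, 3 of them by 2-fold or more, summing to 149 and 61.0 TPM. The 3 were Ucp1, the uncoupling protein of brown fat, at 52.6 and 7.95 TPM (log2 ratio -2.67), the lipid droplet protein Plin1 at 15.3 and 4.45 TPM (-1.79) and the adipokine Adipoq at 11.5 and 4.24 TPM (-1.33). Cidea, a lipid droplet protein of brown fat, had 40.8 and 21.3 TPM, and Lep, the leptin gene of white fat, was the lowest of the list at 0.11 and 0.08 TPM. Their part in the regulator ratios, and that of endothelial markers, was not tested. Markers of T cells, which also use Gata3, were detected in 0 of 7 genes and summed to 0.90 and 1.13 TPM. Markers of mast cells, which also use Gata2, were detected in 1 of 7 and summed to 4.62 and 4.11 TPM.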

How the data were processed

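The authors' deposited tables give, per library, expected counts (estimated reads, not normalized) and TPM for genes and transcripts on build mm10 and annotation M21, per the deposited README files. The columns of the first quantification are those RSEM writes and of the second those kallisto writes, but program names and versions do not appear in the sources used here. The reference is of the C57BL/6J strain, so CAST reads carry mismatches, whose effect was not measured. Left out were 26248 rows named only by a number, with 2 and 3.89 counts.

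Members and gene lists were chosen with earlier results of these data known. Named are all 46 members; of each other list, the highest, the lowest and those called at 2-fold; and non-coding neighbours of at least 1 TPM in both libraries. Others are said to be chosen after their values were seen, or are given as background to a member.

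Expected counts were rounded and compared by an exact two-sided binomial test (SciPy 1.17.1) against TMM effective sizes (edgeR 4.0.16), with Benjamini-Hochberg adjustment over genes whose counts summed to 50 or more. Log2 ratios have 0.5 added to each count. Alternatives were DESeq2 1.42.0 size factors, spike-ins or totals without mitochondrial and haemoglobin genes as the scale, count filters, the second quantification and edgeR's exact test with a common dispersion. Intervals and floors hold counting error alone; reads without molecular identifiers may stem from 1 molecule. Tested on counts simulated for this comparison over 13638 genes, the binomial test found 34 of 50 genes set to a 1.5-fold difference and 47 of 48 set to 2.5-fold, and it called 8 of 13444 left unchanged. The simulated counts held counting error only, which is what the test assumes, so few calls among unchanged genes were fixed in advance. They cannot show how the test does when animals differ. Exon shares were computed from transcript TPM and M21 exons, and exons of at most 30 bases count as short. Some items are not reported here.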

Additional observations from a re-analysis of the deposited data

How the results depend on the processing

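The number of regulators detected was 37 in the first quantification and also with posterior mean TPM, in the second quantification and in each library alone. It was 39 at a TPM of at least 0.5, 32 at 2, and 40 with TPM rescaled to nuclear protein-coding genes without haemoglobin genes. Between the libraries, 12 regulators were called at any fold, and from 11 to 16 under every alternative except 2. With spike-ins as the scale 27 of 42 regulators and 7885 of all 13745 genes were called. The median log2 ratio of the regulators moved from 0.04 to 0.29 and that of all genes from 0.00 to 0.24. With edgeR's exact test and a common dispersion 0 regulators were called. On totals free of mitochondrial and haemoglobin genes the median log2 ratio of the regulators was -0.0039 and that of all genes -0.046. The 1 call at 2-fold, Gata3, gave way to 0 calls with a summed count of at least 10, with no filter on low counts, in the second quantification and in edgeR's test. On the spike-in scale there was also 1 call at 2-fold, but it was Tbx1, higher in replicate 2, and not Gata3. Leaving out a library leaves no comparison between libraries, and with 2 values each lies within 1 SD of their mean by construction. The level of 34 of the 46 regulators moved by more than the spread between libraries in the second quantification, and 40 were higher in it; the cause was not tested. Depth limits the low genes, since the counting interval reached 0.15 to either side in log2 ratio at the median of the regulators and was widest for Gata3, Tbx1, Gata5 and Shox2.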
